A study of Mus musculus with 6 samples.

Results

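The mouse miR-297, miR-466, miR-467 and miR-669 microRNAs form 4 rodent families that derive from short tandem repeats, and the array carried 44 capture probes for them, on 176 spots of each array, among 597 mouse miRNA probes and 1984 kinds of probe in all. A probe was taken into a family when one of the mouse names in its label began with miR-297, miR-466, miR-467 or miR-669, which gave 4, 17, 11 and 12 probes. The families were chosen for study by their EAU minus naive log2 ratio differences on these same arrays, so all values of that difference are a description. All 44 had values for the test, and no filter removed any.

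The samples were retinal cells of B10.RIII mice aged 8 weeks, from 3 naive harvests and from 3 harvests on day 14 of developing experimental autoimmune uveoretinitis (EAU), a model of human uveitis in which autoreactive T cells inflame the eye. The labels do not say how EAU was induced or how many mice a harvest holds. Each array compared 800 ng of sample RNA, labelled with the dye Hy3, with a Hy5-labelled blend of equal parts of the samples, on locked nucleic acid capture probes. Values are log2 ratios of sample to reference, and a difference is the EAU mean minus the naive mean on that log2 scale.

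MicroRNAs are short RNAs that pair with messenger RNAs through their seed, the bases near their 5′ end, and lower the output of those messengers. Each is cut from one arm of a hairpin, named 5p or 3p, and the older star marks the arm held to be the less abundant. In mice most hairpins of these families lie in a large cluster inside an intron of Sfmbt2, a gene that encodes a Polycomb group protein, is imprinted and is known for its role in the placenta. Their sequences are rich in alternating purines and pyrimidines, so close relatives can pair with the same capture probe.

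In the RefSeq mouse table (GRCm38.p6), 71 of the 81 miRNA genes of the 4 families lay within Sfmbt2, and only 1 of the 72 miRNA genes there belonged to no such family. By name, 31 probes matched Sfmbt2 hairpins alone, 6 matched hairpins both there and elsewhere, 6 matched hairpins elsewhere alone, and miR-466a-5p matched none. Mature sequences from RefSeq matched 7 probes. They are of 2 kinds, one rich in A and C and one rich in U and G. The other family probes had no sequence here, so these 7 do not stand for all members. They are written 5′ to 3′, with the seed (bases 2 to 8) in capitals.
miR-467f: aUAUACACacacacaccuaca
miR-466i: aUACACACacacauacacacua
miR-467g: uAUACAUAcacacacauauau
miR-467h: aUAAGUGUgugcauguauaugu
miR-669n: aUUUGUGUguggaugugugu
miR-466j: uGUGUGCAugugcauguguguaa
miR-466k: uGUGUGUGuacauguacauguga

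On GRCm38.p6, miR-467f lies at chr11:69635419-69635439 on the minus strand, miR-466i at chr13:17747552-17747573 on the plus strand and miR-467g at chr5:34732872-34732892 on the minus strand. MiR-467h lies at chr9:115381898-115381919, miR-669n at chr3:115979905-115979924, miR-466j at chr10:60960802-60960824 and miR-466k at chr3:85467396-85467418, all on the plus strand. None of these 7 loci is within Sfmbt2. MiR-466i was matched to the only mature product the table gives for that hairpin, its 3p arm, and miR-669n shares its probe with miR-669c. All 7 seeds differ, and the family names do not follow the sequence: miR-467f shares 81.0% of its bases with miR-467g and 76.2% with miR-466i, but 38.1% with miR-467h of its own family, at the best ungapped offset. The 7 bases ACACACA, searched on the mature strand alone, stand in miR-467f, miR-466i and miR-467g and in 0.298% of the 1679 mature miRNAs of the table. The 7 bases UGUGUGU stand in miR-669n, miR-466j and miR-466k and in 0.655% of them.

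Many family probes were dim. A probe was counted as above the blanks when at least 50% of its spots exceeded a level set on each array from its 144 blank and negative-control spots, their median with 3 median absolute deviations added. In the sample channel 25, 24 and 27 of the 44 family probes cleared this level on the naive arrays, and 28, 29 and 28 on the EAU arrays, in the order of replicates 1 to 3 that is kept throughout. These counts were 25.3 ± 1.53 and 28.3 ± 0.58 (SD, n = 3 each), and the groups did not overlap. Over all mouse probes the counts were 252, 292 and 276 in naive and 294, 315 and 249 in EAU, which did overlap. The sample channel is part of the ratio by which the families were chosen, so these counts are no separate evidence. In all, 22 family members exceeded the blanks on all 6 arrays, 8 on some of them and 14 on none. The 14 that never were include miR-466j and miR-466k, miR-466f, miR-466h, miR-466l, miR-467b, miR-467c, miR-467d, miR-297b-5p, miR-669h-5p, miR-669b, miR-669g, miR-669j and miR-669k.

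In the fit over 595 mouse probes (limma, Benjamini-Hochberg adjusted p under 0.05), 12 of the 44 family probes passed as higher in EAU and 0 as lower, and 32 did not pass. Over all mouse probes 4.20% passed as higher and 8.74% as lower. All 3 EAU arrays lay above all 3 naive arrays for 30 family probes and below them for 2, against 17.0% and 29.6% of all mouse probes. The differences ran from -0.13 to 0.56 with a median of 0.16, and 37 of 44 were above 0. The median over all mouse probes was -0.01. In bulk RNA a larger number of cells that hold a miRNA and more of it per cell cannot be told apart. All naive arrays were scanned on one day and all EAU arrays on another, so scan day and disease cannot be told apart either.

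**Figure D1:**
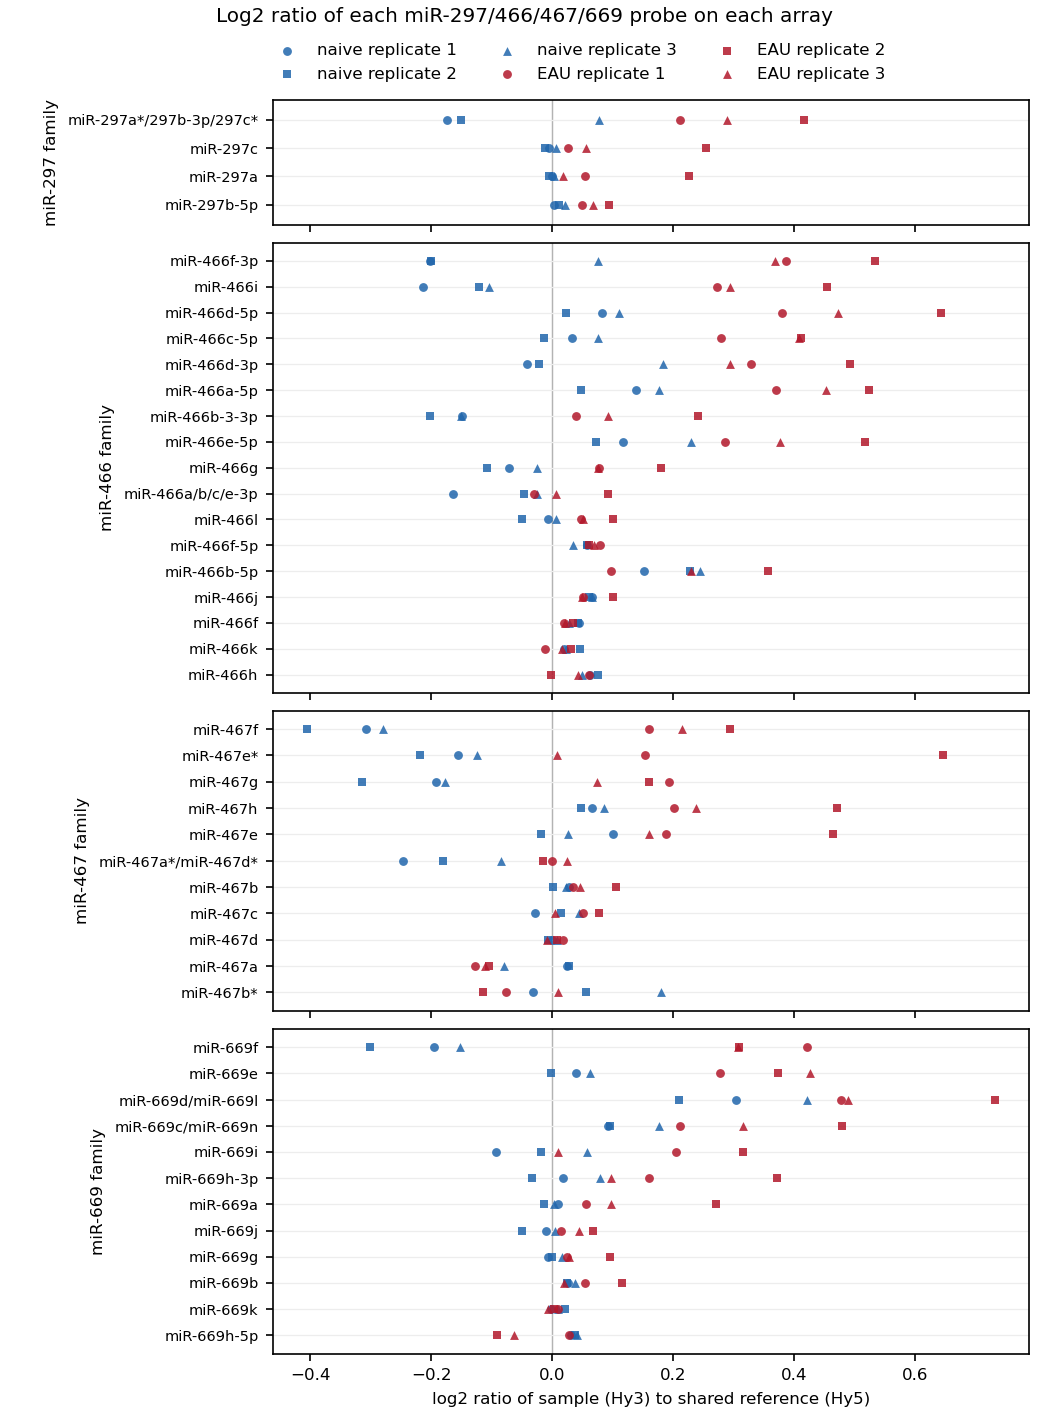
Log2 ratio of sample to shared reference (x axis) for each of the 44 family probes (rows, by family, ordered by the EAU minus naive difference), with 1 point per array: blue for the 3 naive and red for the 3 EAU harvests. In the upper rows of each family the red points lie to the right of the blue ones, and EAU replicate 2 is often the furthest right, while the lower rows lie close together near 0.

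The 2 probes with the largest differences were miR-669f, from an Sfmbt2 hairpin, and miR-467f, from a hairpin on chromosome 11. For miR-669f the log2 ratio was -0.20, -0.30 and -0.15 on the naive arrays and 0.42, 0.31 and 0.31 on the EAU arrays. The means were -0.22 ± 0.08 and 0.35 ± 0.07 (SD, n = 3 each), a difference of 0.56 (SE 0.05) or 1.48-fold. Its raw sample signal was 437, 370 and 395 in naive and 687, 1464 and 457 in EAU, so all EAU arrays were above all naive ones before any reference was used. The reference signal of the same spots was 108, 137 and 88.6 on the naive arrays and 72.8, 101 and 51.1 on the EAU arrays, with EAU replicate 3 the lowest.

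For miR-467f the log2 ratio was -0.31, -0.41 and -0.28 in naive and 0.16, 0.29 and 0.22 in EAU, a difference of 0.55 (SE 0.05). Its raw sample signal was 401, 328 and 312 in naive and 626, 1333 and 362 in EAU, so that the groups overlapped: EAU replicate 3 lay below naive replicate 1. These 2 probes were also the ones that still passed whichever single array was left out.

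The miR-466 family, the largest, had 7 of its 17 probes past the threshold and a median difference of 0.18. Its largest difference was that of miR-466f-3p. The log2 ratio of this probe was -0.20, -0.20 and 0.08 in naive and 0.39, 0.53 and 0.37 in EAU, a difference of 0.54 (SE 0.09). Naive replicate 3 stood apart from the other 2 naive arrays but below every EAU array. MiR-466i, one of the A- and C-rich sequences shown above, had ratios of -0.21, -0.12 and -0.10 in naive and 0.27, 0.45 and 0.29 in EAU, a difference of 0.49 (SE 0.06). MiR-466d-5p had ratios of 0.08, 0.02 and 0.11 in naive and 0.38, 0.64 and 0.47 in EAU, a difference of 0.43 (SE 0.07). Neither probe had groups that overlapped.

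Of the 6 probes of this family named for a 5p arm, 3 passed. Their mature sequences were not among those matched here, so how alike they are was not measured. MiR-466c-5p differed by 0.33 (SE 0.05), with ratios of 0.03, -0.01 and 0.08 in naive and 0.28, 0.41 and 0.41 in EAU. MiR-466a-5p differed by 0.33 (SE 0.05), with ratios of 0.14, 0.05 and 0.18 in naive and 0.37, 0.52 and 0.45 in EAU. By contrast miR-466b-5p, whose name matched 8 Sfmbt2 hairpins, differed by 0.02 (SE 0.07), with ratios of 0.15, 0.23 and 0.24 in naive and 0.10, 0.36 and 0.23 in EAU, which overlapped. Its sample signal was 193, 180 and 161 in naive and 345, 577 and 262 in EAU, so the EAU arrays were all higher there. Its reference signal was 50.8, 56.2 and 42.9 in naive and 70.0, 63.3 and 50 in EAU, while those of miR-466a-5p were 64.9, 78.1 and 53.5 in naive and 54.3, 69.6 and 42.9 in EAU. In the sample channel alone, after normalization, miR-466b-5p differed by 0.51 and miR-466a-5p by 0.59, but in the authors' deposited table by -0.42 and 0.63. The value of miR-466b-5p thus differed in size and sign with the channel and the table it was taken from.

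The other 2 probes of the family that passed were dimmer. MiR-466b-3-3p differed by 0.29 (SE 0.06), with a sample signal of 91.4, 87.6 and 82.8 in naive and 124, 244 and 88.0 in EAU, and was above the blanks on 5 arrays. MiR-466g differed by 0.18 (SE 0.04) and was above the blanks on EAU replicate 2 alone. From the sample channel the lower bound of its fold was 1.015. As its other EAU arrays were under the blanks too, this bound says little. The call for miR-466g was lost when any one of the 6 arrays was left out. The miR-466 probes whose names carry no arm had a median difference of 0.00 over 7 probes, and 5 of them were on no array above the blanks.

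The miR-467 family had 2 of 11 probes past the threshold, miR-467f and miR-467g, and a median difference of 0.17. MiR-467g had ratios of -0.19, -0.32 and -0.18 in naive and 0.19, 0.16 and 0.07 in EAU, a difference of 0.37 (SE 0.05). Its sample signal was 407, 407 and 358 in naive and 797, 1660 and 479 in EAU, with no overlap. The star arm miR-467e* differed by 0.44 but with an SE of 0.17, and it did not pass. Its ratios were -0.16, -0.22 and -0.12 in naive and 0.15, 0.65 and 0.01 in EAU, so EAU replicate 2 lay far above the other EAU arrays. Its sample signal was 842, 827 and 804 in naive and 1389, 2507 and 999.6 in EAU, with all EAU arrays the higher.

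Among the miR-467 probes stood the lowest differences of all 44. MiR-467b* differed by -0.13 (SE 0.06), with ratios of -0.03, 0.06 and 0.18 in naive and -0.08, -0.12 and 0.01 in EAU, which overlapped. MiR-467a differed by -0.11 (SE 0.03), without overlap, and was above the blanks on naive replicate 2 alone. On that array the probe's sample signal was 216, against 52.2 and 75.2 on the other naive arrays, and its reference signal was 72.9, against 33.0 and 39.6. Neither of these 2 probes passed the threshold.

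The miR-669 family had 2 of 12 probes past the threshold, miR-669f and miR-669e, and a median difference of 0.17. MiR-669e had ratios of 0.04, -0.00 and 0.06 in naive and 0.28, 0.37 and 0.43 in EAU, a difference of 0.33 (SE 0.04). Its sample signal was 217, 193 and 191 in naive and 307, 729 and 237 in EAU, and neither measure overlapped. The probe shared by miR-669d and miR-669l differed by 0.25 (SE 0.09) and did not pass, with ratios of 0.30, 0.21 and 0.42 in naive and 0.48, 0.73 and 0.49 in EAU, which did not overlap.

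The miR-297 family had 4 probes, and the 1 that passed captures the star arms miR-297a* and miR-297c* together with miR-297b-3p. Its ratios were -0.17, -0.15 and 0.08 in naive and 0.21, 0.42 and 0.29 in EAU, a difference of 0.39 (SE 0.09). This call was lost in 5 of the 6 fits that left out an array. MiR-297c differed by 0.12 (SE 0.06) and miR-297a by 0.10 (SE 0.06), and neither passed. MiR-297c was under the blanks on every naive array and above them on every EAU array, with a sample signal of 77.5, 74.2 and 64.9 in naive and 94.1, 175 and 90.0 in EAU. From the sample channel the bound on its fold was 1.22, taking the lowest level above the blanks for the naive arrays. This bound compares group means and has no error estimate, and EAU replicate 2 was the brightest array. It exceeds the 1.08-fold of the ratio difference, which did not pass. The blank levels themselves were 89.3, 92.1 and 65.7 in naive and 72.7, 107 and 65.4 in EAU.

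Set side by side, the median differences of the 4 families were 0.11 for miR-297, 0.18 for miR-466, 0.17 for miR-467 and 0.17 for miR-669. Over the probes above the blanks on all arrays they were 0.39 for the 1 miR-297 probe, 0.33 for 9 miR-466 probes, 0.24 for 7 miR-467 probes and 0.25 for 5 miR-669 probes. The range within each family was wider than these gaps between them, from 0.06 to 0.39 in miR-297, from -0.03 to 0.54 in miR-466, from -0.13 to 0.55 in miR-467 and from -0.08 to 0.56 in miR-669. On each array the median log2 ratio of all 44 probes was 0.00, -0.00 and 0.03 in naive and 0.07, 0.23 and 0.07 in EAU, so the EAU arrays were the higher and EAU replicate 2 the highest.

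The differences followed how bright a probe was. The 22 probes above the blanks on all arrays had a median difference of 0.33, and 10 of them passed. The 8 above the blanks on some arrays had a median of 0.13, and 2 passed, while the 14 on none had a median of 0.02, and 0 passed. Of the 8, miR-297c and miR-466g were above the blanks on EAU arrays alone, and miR-467a on a naive array alone. The make-up of that group thus depends in part on the difference itself. Outside the families, 173 mouse probes cleared the blank level on every array, with a median difference of -0.07, and 9 of them passed as higher and 28 as lower. Across the 44 family probes the difference and the mean log2 sample signal had a Spearman correlation of 0.73 and a Pearson correlation of 0.76. Across the 551 other mouse probes these were -0.20 and -0.15. Both measures of a probe come from the same 6 arrays and share the sample channel. The offset of 50 added to each channel draws the ratio of a dim probe towards 0.

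**Figure D2:**
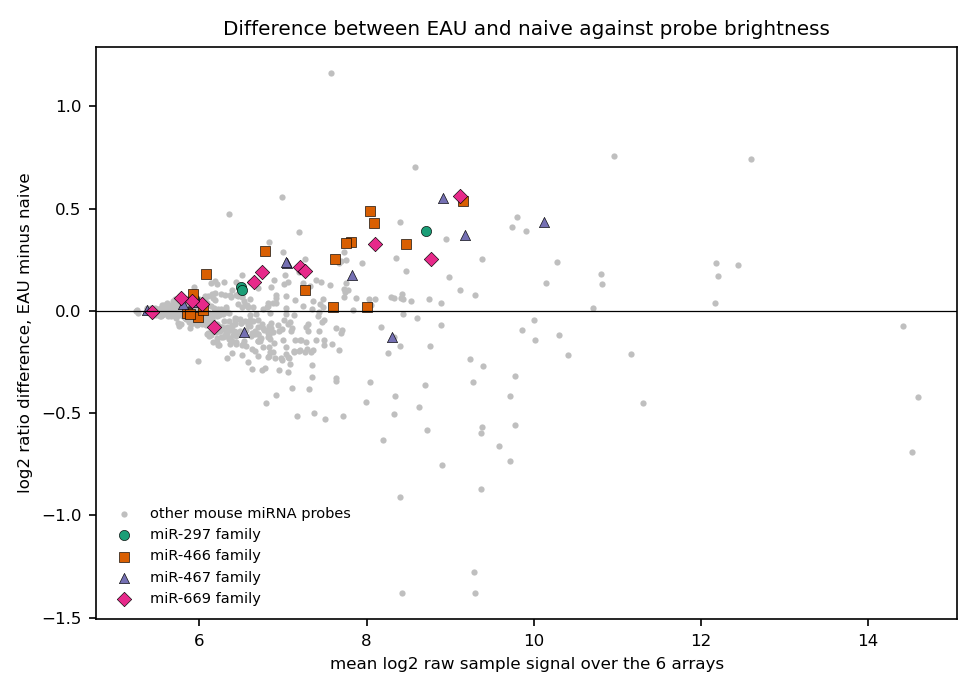
EAU minus naive difference in log2 ratio (y axis) against the mean log2 raw sample signal over the 6 arrays (x axis) for 595 mouse probes, with the 4 families in colour and all others in grey. Dim family probes lie near 0 and the brighter ones lie mostly between 0.2 and 0.6, where the grey probes spread to both sides of 0.

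The 2 channels were then read apart for the 22 family probes above the blanks on all arrays. The sample signal is part of the ratio by which the families were chosen, so its values here are a description too. In the raw sample signal, every EAU array was above every naive array for 12 of 22 (54.5%), against 5.21% of all mouse probes. Over the 195 mouse probes above the blanks on all arrays that share was 10.3%, over the 173 of them outside the families 4.62%, and over all 44 family probes 36.4%. EAU replicate 2 was the brightest array in general: it was the highest of the 6 for all 22 family probes, for 155 of the 195 and for 430 of all 595. EAU replicate 3 was above every naive array for 12 of the 22 and for 42 of the 595. With each signal divided by its array's blank level, every EAU array was above every naive array for 20 of 22 (90.9%), against 15.3% of all mouse probes, 21.5% of the 195 and 12.7% of the 173; over all 44 family probes it was 72.7%. The median of the 22 was then 2.32, 2.30 and 2.72 times the blank level in naive and 4.55, 6.03 and 3.51 times in EAU. In the raw reference signal, which was the same RNA blend on all arrays, 0 of 22 probes had every EAU array above every naive one and 0 had them below, against 0.672% and 0.336% of all mouse probes. EAU replicate 3 had the lowest reference signal for 18 of the 22, and its reference channel was also the dimmest as a whole, with 149 mouse probes above the blanks against 239 to 314 on the other arrays. Without EAU replicate 3, 2 family probes passed as higher, miR-669f and miR-467f, and they were the only 2 of 592 mouse probes (0.338%) to do so. How far the dim reference of that array moved the ratios was not tested.

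**Figure D3:**
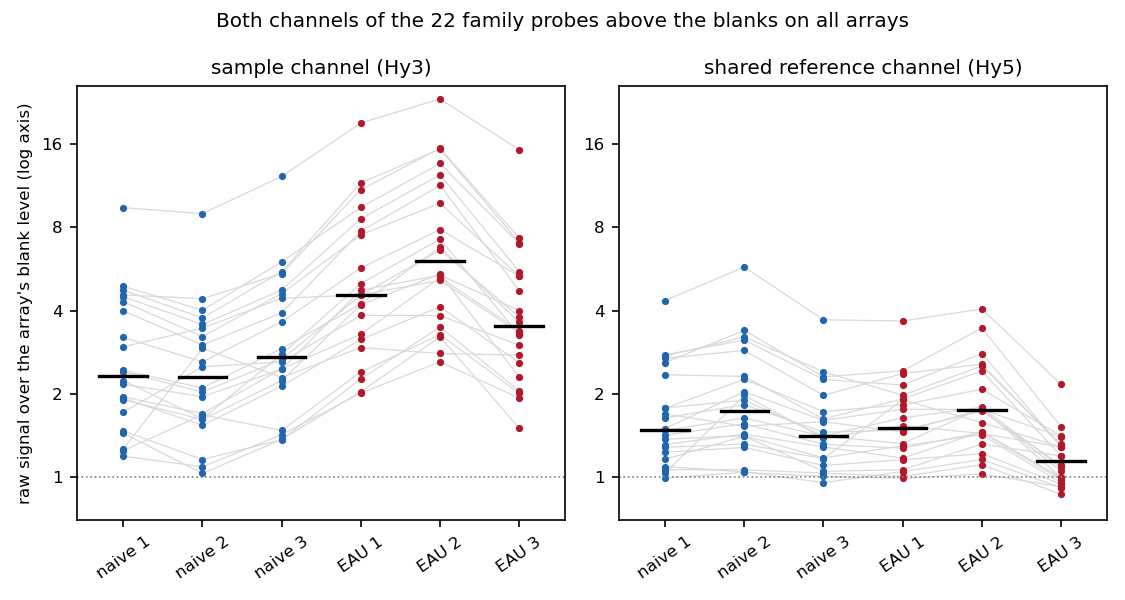
Raw signal divided by the array's blank level (log axis) on each of the 6 arrays for the 22 family probes above the blanks on all arrays, in the sample channel on the left and the shared reference channel on the right; grey lines join a probe and black bars are medians. In the sample channel the medians are 2.30 to 2.72 in naive (blue) and 3.51 to 6.03 in EAU (red), while in the reference channel they are 1.40 to 1.73 in naive and 1.15 to 1.74 in EAU.

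Arms were compared next, first over all probes by name. The 8 probes for a 5p arm had a median difference of 0.16 with 3 passed, the 5 for a 3p arm 0.29 with 2 passed, and the 3 for a star arm 0.17 with 0 passed. The probe that mixes star and 3p names differed by 0.39 and passed, and the 27 probes whose names carry no arm had a median of 0.10 with 6 passed. Arms were read from the names alone, so miR-466i, matched above to a 3p product, counts among these 27. The medians thus do not compare the arms of all the probes. None of the 5 probes for a 3p arm and none of the 3 for a star arm was under the blanks on every array, whereas 12 of the 27 with no arm in the name and 2 of the 8 for a 5p arm were.

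For 14 hairpins both arms were probed, but by 8 distinct probes on the star or 3p side, as 3 of them capture arms of several hairpins. The star or 3p arm had the larger difference in 9 hairpins and the smaller in 5. The widest gap was in miR-466f, where the 5p arm differed by 0.02 and the 3p arm by 0.54. The 5p arm of miR-466f had ratios of 0.06, 0.06 and 0.04 in naive and 0.08, 0.06 and 0.07 in EAU. Its signal was uneven among the naive arrays: 113, 269 and 150 in the naive sample channel, with 41.0, 84.3 and 51 in the reference, and 214, 301 and 181 in the EAU sample channel, with 56.5, 57.7 and 50 in the reference. Naive replicate 2 was thus high in both channels at once.

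In miR-466d both arms were above the blanks on every array and lay close, at 0.43 for 5p and 0.33 for 3p. MiR-467e differed by 0.24 and its star arm by 0.44. In the miR-297 hairpins the 5p or unstarred arms differed by 0.10, 0.06 and 0.12 and their shared star or 3p probe by 0.39. The order was turned in miR-466a, miR-466c and miR-466e, where the 5p arms differed by 0.33, 0.33 and 0.25 and the 3p probe they share by 0.10. That 3p probe also serves miR-466b, and its sample signal on naive replicate 2 was 240, against 104 and 74.2 on the other naive arrays. In 6 of the hairpins, those of miR-297, miR-467a, miR-467b and miR-467d, the arm with the larger or smaller value cannot be set apart from brightness. There the unstarred or 5p probe was under the blanks on 1 or more arrays and the other probe on none. In miR-669h the 5p probe was above the blanks on 0 arrays and the 3p probe on 5. In miR-466a, miR-466b, miR-466c and miR-466e the 5p probes were above them on 6 arrays and the shared 3p probe on 5. Detection of the arms was thus unequal there too.

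**Figure D4:**
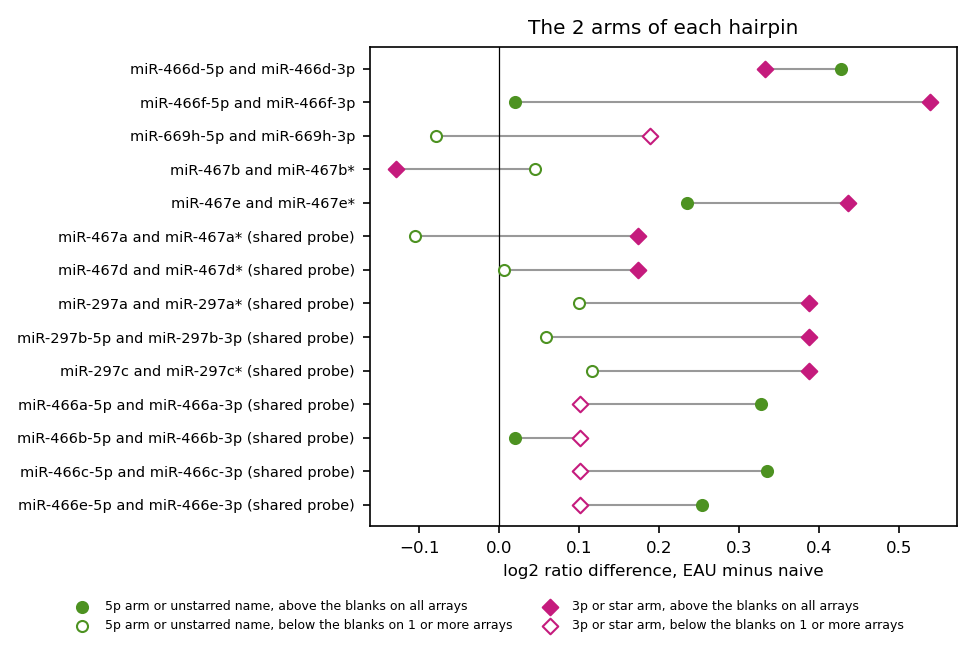
EAU minus naive difference in log2 ratio (x axis) of the 5p or unstarred arm (green circles) and the 3p or star arm (pink diamonds) of 14 hairpins (rows); filled symbols cleared the blank level on all 6 arrays and open ones did not. The gap is widest for miR-466f, at 0.02 and 0.54, and the 4 lowest rows share 1 probe for the 3p arm, at 0.10.

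Probes from outside the Sfmbt2 cluster were among those that passed. The 6 probes whose names matched hairpins elsewhere alone had a median difference of 0.30, and 3 of them passed: miR-467f, miR-466i and miR-467g. The 31 probes matched to Sfmbt2 alone had a median of 0.12, and 6 passed. Of these 6 probes from elsewhere, the 3 that passed hold ACACACA and differed by 0.55, 0.49 and 0.37. The U- and G-rich ones were miR-467h at 0.24, miR-466j at 0.00 and miR-466k at -0.02, and the probe shared by miR-669c and miR-669n differed by 0.21. The 3 A- and C-rich probes cleared the blank level on every array, and so did miR-467h and the miR-669c and miR-669n probe, but miR-466j and miR-466k did on none.

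Probes outside the rule that resemble the families were examined for the same difference. Of the 143 other mouse probes with a mature sequence in the table, 0 share a seed with one of the 7 sequences. A run of 4 or more copies of a 2-base unit stood in 2 of them, miR-574-5p and miR-1187. MiR-574-5p, with UG repeats, differed by 0.10 (limma, adjusted p = 0.0852) and miR-1187, also with UG repeats, by 0.00 (adjusted p = 0.98), and neither passed. For miR-574-5p all EAU arrays still lay above all naive arrays in the ratio. So they did in the raw sample signal, at 216 to 503 against 148 to 176. Both measures of miR-1187 overlapped.
miR-574-5p: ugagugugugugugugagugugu
miR-1187: uauguguguguguauguguguaa
With 3 or more copies in a row the list held 15 probes, of which 0 passed, with a median difference of 0.03. Of the 3 probes named for rat members of the families, rno-miR-466c differed by 0.35 (SE 0.04) and passed in the fit over all capture probes (2.09% of which passed as higher), rno-miR-466b by 0.19 and rno-miR-297 by 0.02, which did not. They hybridised the same mouse RNA as the mouse probes and are no separate evidence.

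The labelled tissue was checked against miRNAs known for their cell types. All 5 retinal miRNAs (miR-124, miR-9, miR-183, miR-96 and miR-182) were above the blanks on every array, and their summed sample signal was 46759 to 52978 in naive and 6463 to 18430 in EAU. MiR-124 made up most of that sum and did not pass, with a difference of -0.69 (SE 0.67). Of the 5, miR-9 and miR-183 passed, both as lower. Of 6 leukocyte miRNAs, 2 were above the blanks on every naive array and 4 on every EAU array. Their summed signal was at most 590 in naive and 715 to 1508 in EAU. The highest sum was on EAU replicate 2, as it also was for the erythroid list (242) and the muscle list (537). Of the 6, miR-142-3p alone passed, as higher by 0.56 (SE 0.08). MiR-223 and miR-150, which cleared the blank level on every array, differed by 0.13 and -0.10, and miR-155 never cleared it. Both markers of pigment epithelium, miR-204 and miR-211, cleared the blank level on every array and passed as lower. The part of these shifts in the values of the repeat families was not tested.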

How the data were processed

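Retinal miRNAs were measured on 6 two-colour miRCURY LNA arrays, 3 naive and 3 EAU, with the sample always in Hy3, per the labels. The authors deposited scanner files with the intensity of 8720 spots in both channels and of the local background around them. Per the file headers, the program was Agilent Feature Extraction 9.1.3.1, which the submitters' processing notes name with no version. A second table that the authors deposited gives 1 linear ratio for each probe (1972 rows), normalization not given in the sources used here. Its 36 rows above 32 on every array were left out. It served as an alternative.

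Mean spot signal was corrected with the median local background (normexp, offset 50) and normalized by loess within each array, with control spots at weight 0 (limma 3.58.1, R 4.3.3). Spots marked as outliers were dropped and the spots of a probe averaged on the log2 scale. The test was limma's lmFit and eBayes over 595 of 597 mouse probes, two-sided, with Benjamini-Hochberg adjustment and a threshold of 0.05. Its code was also run on simulated data with planted differences and independent noise. These data held no effect of array or scan day, so they do not bear on the calls here. The p-values rest on the spread between the arrays of a group, as moderated by eBayes. Each sample had an array of its own, so variation between samples and between arrays cannot be told apart. The number of arrays limits the precision. A lower bound of a fold sets the mean of the brighter group, in the sample channel after loess and Aquantile, against the dimmer group, in which each array counts at the dimmest signal that cleared its blanks, or at the probe's signal if that was higher, averaged over arrays.

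The members, lists and tests were chosen with earlier results of these data known. Named were the members past the threshold, in each family the 3 largest differences and the 2 brightest probes in naive, and for lists of related probes up to 5 by size. Other members named, among them those of arm pairs and those with a sequence, were chosen after their values were seen. Of mature sequences in the RefSeq table (GRCm38.p6), 7 matched a family probe. Same-numbered samples deviated from their group means with correlations of 0.19, -0.15 and 0.29 over 592 probes. Those of unlike numbers ran from -0.44 to 0.30. So few values cannot show whether the numbers pair the samples, and no source used here says that they do.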

Additional observations from a re-analysis of the deposited data

How the results depend on the processing

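The number of family probes past the threshold as higher, 12 in the fit reported, depended on the processing. The direction of the 16 probes named by rule reversed in none of the 21 other settings that gave a value. Most of them were named for passing or for large differences in the fit reported, so their direction does not speak for the other members. MiR-466b-5p, not among the 16, differed by 0.02 in the fit reported and by -0.42 in the authors' deposited table. The number passing as higher was 0 with median centring in place of loess (29 at an unadjusted p under 0.05, limma). It was 7 with loess fitted on bright spots, 5 of them among the 12, and 21 with the scanner's processed signals. With the sample signal over the blank level, a setting chosen after seeing the data, it was 1 (28 unadjusted). That 1 probe was miR-466b-5p, and 0 of the 12 passed in that setting. Leaving out 1 array gave 2 to 11, with 2 without naive replicate 1 or EAU replicate 3 and 3 without naive replicate 2. The number lower, 0 in the fit reported (1 at an unadjusted p under 0.05), was 1 without background correction and 0 to 1 when 1 array was left out. The causes were not tested. The median differences of miR-297, miR-466, miR-467 and miR-669 were 0.45, 0.64, 0.66 and 0.54 with median centring, and 0.52, 0.71, 0.72 and 0.61 without normalization. They were 0.21, 0.41, 0.29 and 0.31 with an offset of 16, 0.60, 0.79, 0.41 and 0.65 from processed signals, and 0.28, 0.32, 0.34 and 0.30 in the sample channel alone. They were 0.42, 0.64, 0.40 and 0.47 in the authors' deposited table, and 0.63, 0.68, 0.72 and 0.69 over the blank level. With loess on bright spots they were 0.27 for miR-297, 0.25 for miR-466 and 0.22 for miR-467. Without background correction they were 0.28 for miR-466 and 0.094 for miR-467. With probes under the blanks left out they were 0.33 for miR-466 and 0.24 for miR-467. Leaving out 1 array gave 0.14 to 0.22 for miR-467. A blank level of 5 median absolute deviations left 21.3 family probes above it in naive and 27.7 in EAU, and repeats of 3 or more copies widened that list from 2 probes to 15.

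With the sample number as a replicate block, 0 family probes passed in either direction (18 higher and 2 lower at an unadjusted p under 0.05). The samples share only a number, so the block was not used.

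Signal over background limits the values: 14 of the 44 probes were never above the blanks, and their differences are bounded towards 0. Cross-hybridisation between family members cannot be measured here.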

Other observations

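Outside the families, the mouse probes whose mature sequence was as rich in A and C as those of miR-466i, miR-467f and miR-467g did not all share their difference: of 7 probes with at least 71.4% A or C, 2 passed as higher and 0 as lower. MiR-1192, with 86.4% A or C, differed by 0.46 between EAU and naive and miR-706, with 72.7%, by 0.70, and both passed as higher (limma, adjusted p = 0.0166 and 0.0149). MiR-574-3p, with 81.8%, differed by 0.03 (adjusted p = 0.26) and was above the blanks on no array, and miR-34b-3p, with 72.7%, differed by -0.45 (adjusted p = 0.153). MiR-690 and miR-532-3p, both with 72.7%, differed by -0.07 (adjusted p = 0.918) and -0.28 (adjusted p = 0.11), and miR-703, with 71.4%, by 0.00 (adjusted p = 0.934). Over the 143 such probes with a sequence, the share of A or C and the difference had a Spearman correlation of 0.02, and over the 41 above the blanks on all arrays of 0.13. The probes share their arrays, and these values were looked up after those of the families were seen.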
